A study of Mus musculus with 8 samples.

Results

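The 10 genes described here are brakes and readouts of the ERK pathway: the MAP kinase phosphatase genes Dusp1, Dusp4, Dusp5 and Dusp6, the Sprouty genes Spry1, Spry2 and Spry4, the Spred genes Spred1 and Spred2, and the Ets transcription factor gene Etv5. They were taken by gene name from the 57010 genes of the deposited table, as genes whose transcription follows ERK activity, and so as a reading of the signal upstream of the transcription factor gene Egr1. Each name matched 1 gene, and all 10 passed the expression filter. The RNA was from retinas of C57BL/6J mice at 17 days of age with oxygen-induced retinopathy. In this model a spell of high oxygen prunes the capillaries of the young retina, and back in room air the starved tissue drives abnormal vessel growth. The control group (4 libraries) was given a control scAAV, a self-complementary adeno-associated virus, and the knockdown group (4 libraries) an scAAV against the long noncoding RNA MM2P. Both groups thus carried the strain, the retinopathy and a vector. The treatment label of the second group reads "AAV KO", while the study's design speaks of a knockdown. No source used here gives the promoter of the vector, the cells it reached or whether replicates are separate animals, so p-values measure only the spread between these samples, which may be technical.

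ERK is the last kinase of a relay that runs from growth factor receptors through Ras, Raf and MEK. Once active it switches on genes whose products turn the relay down again. Phosphatases of the Dusp family remove the activating phosphates from MAP kinases, Sprouty proteins blunt signalling between receptor and Ras, and Spred proteins act on Ras with neurofibromin. Etv5 is itself a transcriptional target of fibroblast growth factor and ERK signalling. In the retina the pathway is known for its activity in Müller glia after injury or growth factor treatment.

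Of the 10 promoters, 8 were found in RefSeq's table of gene starts on GRCm38.p6, with 9 start sites in all because Etv5 has a pair. Dusp4 and Spry4 were not matched. The 250 bases before each start were searched on both strands for 5 motifs: the cyclic AMP response element (CRE, TGACGTCA), the CArG box bound by serum response factor, an Egr site (GCGNGGGCG), an Ets site (CCGGAAGT) and an AP-1 site (TGANTCA). Only Dusp1 held a CRE, which 1.55% of the 32851 promoters of the table held, and only Dusp5 held CArG boxes, a pair side by side, where 1.47% of promoters held at least 1. None of the 9 windows held the Egr, Ets or AP-1 letters, which were found in 4.70%, 2.88% and 6.75% of all windows. The windows of Dusp1 and Dusp5 are shown because they carry the matches, and that of Spry2 because it is the member whose knockdown and control libraries did not overlap in CPM. Matched letters are in capitals.
Dusp1, chr17:26508473-26508722, minus strand: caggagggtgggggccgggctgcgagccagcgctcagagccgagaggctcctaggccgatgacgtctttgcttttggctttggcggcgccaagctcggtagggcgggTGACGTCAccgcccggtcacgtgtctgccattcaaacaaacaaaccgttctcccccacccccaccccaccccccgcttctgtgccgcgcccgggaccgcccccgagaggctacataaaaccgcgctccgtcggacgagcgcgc
Dusp5, chr19:53528895-53529144, plus strand: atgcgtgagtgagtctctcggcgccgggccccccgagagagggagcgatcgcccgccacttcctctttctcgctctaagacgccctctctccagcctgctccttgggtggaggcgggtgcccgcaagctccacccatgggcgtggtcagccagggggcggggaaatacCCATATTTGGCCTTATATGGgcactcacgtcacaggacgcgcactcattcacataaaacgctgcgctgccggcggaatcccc
Spry2, chr14:105896820-105897069, minus strand: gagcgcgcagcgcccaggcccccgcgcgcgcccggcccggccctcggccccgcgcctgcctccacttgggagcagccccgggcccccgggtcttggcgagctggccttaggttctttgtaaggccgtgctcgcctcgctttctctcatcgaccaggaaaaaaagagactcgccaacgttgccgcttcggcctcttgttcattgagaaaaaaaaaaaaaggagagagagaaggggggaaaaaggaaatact
The CRE of Dusp1 lies 143 to 136 bases before the start. The CArG boxes of Dusp5 lie 82 to 73 and 72 to 63 bases before it. The 9 windows were 56.0% to 71.2% G and C, against a median of 52.4% over all windows. A match of letters is a description of these windows and not evidence of binding.

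The libraries held 16.03 to 21.4 M estimated counts (M, units of 1000000), with all 4 controls (20.45 to 21.4 M) above all 4 knockdown libraries (16.03 to 20.16 M). The target, listed as Mm2pr, was near its detection limit, with 1, 1, 16.95 and 7.34 counts in controls 1 to 4 and 0, 0, 2 and 20.61 in knockdown 1 to 4, so it does not check the group labels. As a check of the labelled tissue, 10 of 10 rod markers passed the expression filter. Their summed level was 44960 to 46460 CPM (counts per 1000000) in the controls and 41340 to 45470 CPM in the knockdown. Knockdown 3 and knockdown 4 were below every control in this sum. The log2 fold changes of rod markers were negative for 8 of 10, with a median of -0.04. Lens markers moved with the group: 15 of 18 were tested and 7 were called higher in the knockdown, against 0.062% of all genes called. That share is 10 genes and includes these 7, so it is not an independent background for them. Their summed level was 8.33 to 8.74 CPM in the controls and 22.2 to 173 CPM in the knockdown libraries, the highest in knockdown 3. The filter of 1 TPM (transcripts per 1000000) in 4 libraries can be met by the knockdown group alone. The count tested can thus depend on the group. Of all genes tested, 48.2% had a negative fold change and 5.27% an unadjusted p under 0.05. Of the 10 endothelial markers 9 were negative in log2 fold change (median -0.21), with 6 at an unadjusted p under 0.05 (all lower) and summed levels of 430 to 510 CPM in the controls and 430 to 456 CPM in the knockdown. Of the 10 ganglion cell markers 8 were negative, with a median of -0.14, 1 called lower, 5 at an unadjusted p under 0.05 (all lower) and 1551 to 1687 CPM in the controls against 1303 to 1574 CPM in the knockdown. Skeletal muscle markers summed to 49.9 CPM in knockdown 4 and to 8.42 to 13.01 CPM in the other 7 libraries, with 3 of 8 markers tested and 0 called. The Y-linked gene Ddx3y was at 0 counts in 3 libraries (control 1, knockdown 1, knockdown 3), while the remaining 5 had 814 to 1919. Müller glia markers had 6 positive and 6 negative fold changes, with 6047 to 6503 CPM in the controls and 5885 to 6569 CPM in the knockdown. The part of these differences in the levels below was not tested. In whole retina, fewer cells of a type and less RNA per cell cannot be told apart.

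None of the 10 feedback genes was called between knockdown and control retinas. Their log2 fold changes, knockdown over control, ran from -0.17 for Spred2 to 0.11 for Dusp6, that is from -10.9% to 7.88%. The signs were 6 negative and 4 positive, where 48.2% of all genes tested were negative, with a median of -0.02, against a median of 0.0039 over the 16118 genes tested. The median size of the change was 0.05 for the 10 genes and 0.07 for all genes tested. With edgeR's quasi-likelihood test and Benjamini-Hochberg adjustment over all genes, adjusted p-values of the members ran from 0.930 to 0.999, and a gene was called at an adjusted p under 0.05. That rule called 0.062% of all genes tested, so 0 of 10 lies near the background and is no result about these genes. At an unadjusted p under 0.05, which 5.27% of all genes met, there were also 0 members. DESeq2, which called 0.279% of the genes it gave an adjusted p, called 0 members. Limma on log2(TPM + 1) called 0.0% of all genes, so its 0 members was fixed, and 804 genes had an unadjusted p under 0.05. The approximate 95% interval of each member included 0, and all 10 intervals lay within a 1.5-fold change in either direction. The share of all genes tested that met the 1.5-fold limit was not counted, so this is no result about these genes. The count of members called was 0 with each of the 8 libraries left out in turn. Without control 1 or control 2, 0 of all genes tested were called, so the 0 members was fixed there. Without control 4, 1 gene was called, and the largest number was 58, without control 3.

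**Figure D1:**
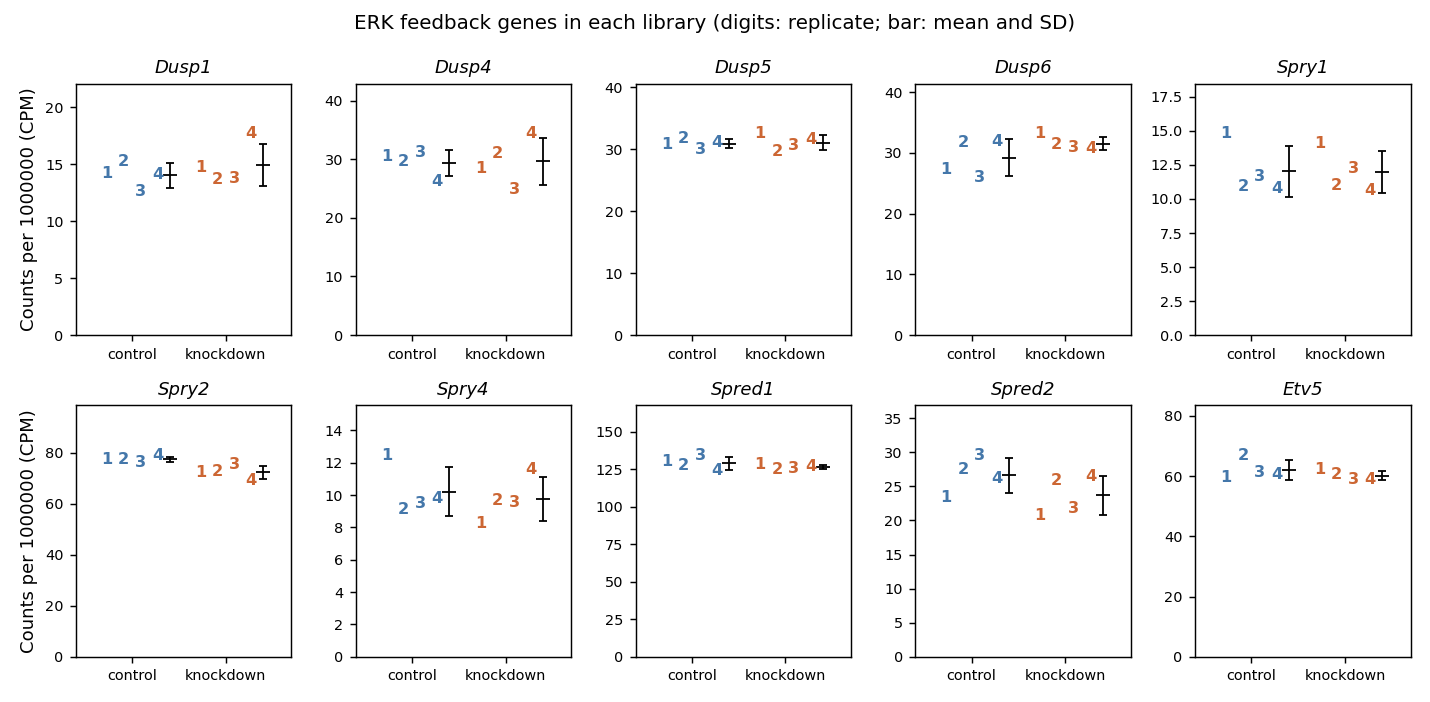
Level of each ERK feedback gene in counts per 1000000 (CPM, vertical axes, each from 0) in the 4 control and 4 knockdown libraries. Digits are the replicate numbers and bars the mean and SD. The groups overlap in 9 of the 10 genes, and in Spry2 the controls (76.3 to 78.9 CPM) sit above the knockdown libraries (69.1 to 75.5 CPM). Groups without overlap in CPM were found for 3.31% of all genes tested, and in TPM the groups of Spry2 overlap.

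The nuclear phosphatase genes had fitted differences of 6.49% for Dusp1, 0.971% for Dusp4 and 0.626% for Dusp5, none of which passed the test. Dusp1 encodes an immediate early phosphatase that also acts on p38 and JNK (ENSMUSG00000024190; GRCm38 chromosome 17, 26505590 to 26562128, minus strand). It had 14.2, 15.2, 12.6 and 14.1 CPM in controls 1 to 4 and 14.7, 13.7, 13.7 and 17.7 CPM in knockdown 1 to 4. Knockdown 4, the library with the high muscle marker sum, was the highest of the 8, and the groups overlapped. In CPM the same library was also the highest of the 8 for Dusp4, and the lowest for Spry1, Spry2 and Etv5. The log2 fold change of Dusp1 was 0.09 (SE 0.10, 95% interval -0.13 to 0.32, edgeR adjusted p = 0.989), and -0.0030 without knockdown 4. The promoter printed above lies inside the annotated span of Dusp1, which reaches further upstream in GENCODE M21.

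Dusp4, which encodes a further inducible nuclear phosphatase (ENSMUSG00000031530; chromosome 8, 34807297 to 34819894, plus strand), had 30.5, 29.6, 31.2 and 26.2 CPM in the controls and 28.3, 31.0, 24.9 and 34.3 CPM in the knockdown. Both the lowest and the highest library belonged to the knockdown group, knockdown 3 and knockdown 4. Group means were 29.4 ± 2.21 and 29.6 ± 4.01 CPM (SD, n = 4 each). A log2 fold change of 0.014 (95% interval -0.19 to 0.22) turned negative without control 4 (-0.04), knockdown 2 (-0.0080) or knockdown 4 (-0.07). Dusp5 encodes a nuclear phosphatase that acts on ERK (ENSMUSG00000034765; chromosome 19, 53529109 to 53542431, plus strand). It had 30.7, 31.8, 30.0 and 31.1 CPM in the controls and 32.5, 29.6, 30.6 and 31.6 CPM in the knockdown, a spread of 2.36% and 3.99% of the group means (coefficient of variation). Its log2 fold change, 0.0090 (95% interval -0.13 to 0.15), was negative without control 3 (-0.0047), knockdown 1 (-0.013) or knockdown 4 (-0.0011). Of its 2473 exonic bases 22.1% lie under the opposite-strand gene AC137853.2, and its counts carried fractions in all 8 libraries, so part of them is of uncertain origin.

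Dusp6, the cytoplasmic ERK phosphatase and a common readout of ERK activity (ENSMUSG00000019960; chromosome 10, 99263231 to 99267489, plus strand), had the highest fold change of the 10. It had 27.3, 31.8, 26.0 and 31.8 CPM in the controls and 33.1, 31.4, 30.9 and 30.7 CPM in the knockdown. Controls 1 and 3 were below all 4 knockdown libraries, while controls 2 and 4 lay among them. The means were 29.2 ± 3.03 CPM and 31.5 ± 1.11 CPM (SD, n = 4 each). The log2 fold change was 0.11 (SE 0.08, 95% interval -0.06 to 0.28, edgeR adjusted p = 0.989) and stayed positive, between 0.06 and 0.15, in all 16 alternative fits.

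Spry2 was the member with the smallest p-value and the 1 member whose groups did not overlap in CPM. Its product binds the ubiquitin ligase Cbl and restrains receptor tyrosine kinase signalling (ENSMUSG00000022114; chromosome 14, 105891947 to 105896819, minus strand). It had 77.3, 77.5, 76.3 and 78.9 CPM in the controls and 72.1, 72.6, 75.5 and 69.1 CPM in the knockdown. The highest knockdown library, knockdown 3, lay just under the lowest control, control 3. In TPM the groups overlapped, at 89.8 to 94.4 TPM in the controls and 81.9 to 91.9 TPM in the knockdown. The means were 77.5 ± 1.05 CPM and 72.3 ± 2.63 CPM (SD, n = 4 each), a fitted difference of -6.72%. Its log2 fold change of -0.10 (SE 0.05, 95% interval -0.20 to 0.0010) had an unadjusted p of 0.0520 and an adjusted p of 0.930 in edgeR, and it did not pass. Groups without overlap were found for 3.31% of all genes tested, and groups with every knockdown value below every control value for 1.71%. Its log2 fold change stayed between -0.12 and -0.08 in the 16 alternative fits.

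The other Sprouty genes were the least expressed members per length and the most variable in the controls. Spry1 (ENSMUSG00000037211; chromosome 3, 37639947 to 37644598, plus strand) had 14.8, 10.9, 11.7 and 10.7 CPM in the controls and 14.1, 10.99, 12.2 and 10.7 CPM in the knockdown. The 3 highest libraries, control 1 and knockdown 1 and 3, were those with 0 Ddx3y counts, and the means of 12.02 ± 1.88 and 11.99 ± 1.55 CPM (SD, n = 4 each) were nearly equal. Spry1 had a log2 fold change of -0.0051 (95% interval -0.28 to 0.27), and of 0.11 without control 1, 0.03 without knockdown 2 and 0.05 without knockdown 4. A fit with Ddx3y as a covariate gave -0.10. The opposite-strand gene Gm42922 covers 24.4% of the 2906 exonic bases of Spry1, and 3 libraries had fractional counts.

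Spry4 (ENSMUSG00000024427; chromosome 18, 38586247 to 38601415, minus strand) had 12.4, 9.13, 9.48 and 9.76 CPM in the controls and 8.23, 9.69, 9.55 and 11.6 CPM in the knockdown. Control 1 and knockdown 4 were the highest and knockdown 1 the lowest. Spry4 had a log2 fold change of -0.06 (95% interval -0.34 to 0.22), 0.05 without control 1 and 0.012 without knockdown 1. Its coefficients of variation, 14.8% and 14.03%, and those of Spry1, 15.7% and 12.9%, compare with 1.35% and 3.64% for Spry2.

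Spred1 was the member with the most counts and one of the steadiest. Its product carries neurofibromin to the membrane, where Ras is switched off (ENSMUSG00000027351; chromosome 2, 117121374 to 117182279, plus strand). It had 130, 128, 134 and 124 CPM in the controls and 129, 125, 126 and 127 CPM in the knockdown. All 4 knockdown libraries lay within the range of the controls. Its log2 fold change was -0.03 (SE 0.04, 95% interval -0.12 to 0.07, edgeR adjusted p = 0.997), and the coefficients of variation were 3.30% and 1.16%.

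Spred2, its paralog (ENSMUSG00000045671; chromosome 11, 19924375 to 20024026, plus strand), had the lowest fold change of the 10. It had 23.3, 27.5, 29.5 and 26.1 CPM in the controls and 20.8, 25.9, 21.7 and 26.4 CPM in the knockdown. Knockdown 1 and 3 were below every control, while knockdown 2 and 4 lay among the controls. The 3 lowest libraries, control 1 and knockdown 1 and 3, were those with 0 Ddx3y counts. In Spry1 the same 3 were the highest, and in the remaining members they were neither the 3 highest nor the 3 lowest. A link to Ddx3y was not tested. The means were 26.6 ± 2.58 and 23.7 ± 2.88 CPM (SD, n = 4 each). The log2 fold change was -0.17 (SE 0.10, 95% interval -0.38 to 0.05, edgeR adjusted p = 0.967), -0.11 without control 3 or knockdown 1, -0.22 when control 1 was left out and -0.23 when knockdown 4 was. A fit with Ddx3y as a covariate gave -0.09.

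Etv5, which encodes an Ets factor of the PEA3 group (ENSMUSG00000013089; chromosome 16, 22381309 to 22439719, minus strand), had 59.5, 66.7, 61.1 and 60.5 CPM in the controls and 62.0, 60.4, 59.0 and 59.0 CPM in the knockdown. Control 2 was the highest and the other 7 libraries lay between 59.0 and 62.0 CPM. The log2 fold change was -0.04 (SE 0.05, 95% interval -0.16 to 0.07, edgeR adjusted p = 0.989). It moved to -0.0063 without control 2.

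Levels of different genes were compared as TPM (transcripts per 1000000), which divides counts by gene length. Spry2 was the most abundant member at 88.7 ± 4.53 TPM (SD, n = 8), followed by Spred1 at 52.5 ± 1.93 TPM, Etv5 at 39.99 ± 2.08 TPM and Dusp5 at 30.97 ± 1.09 TPM. The ranges of these 4 over the 8 libraries did not overlap with that of the next gene in the order. The range of Dusp5 (29.8 to 32.6 TPM) did overlap with that of Dusp4, which reached 31.4 TPM. Dusp6 at 26.8 ± 2.11 TPM and Dusp4 at 26.6 ± 2.96 TPM overlapped, with Dusp6 the higher in 4 of 8 libraries. Dusp1 at 17.99 ± 2.04 TPM, Spred2 at 13.99 ± 1.74 TPM and Spry1 at 11.95 ± 1.56 TPM each overlapped with the neighbour in the order. Spry4 was lowest at 5.19 ± 0.765 TPM, and its range ended below that of Spry1. Summed over the 10 genes, the level was 303 to 334 TPM in the controls and 301 to 320 TPM in the knockdown libraries, so the sums overlapped.

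**Figure D2:**
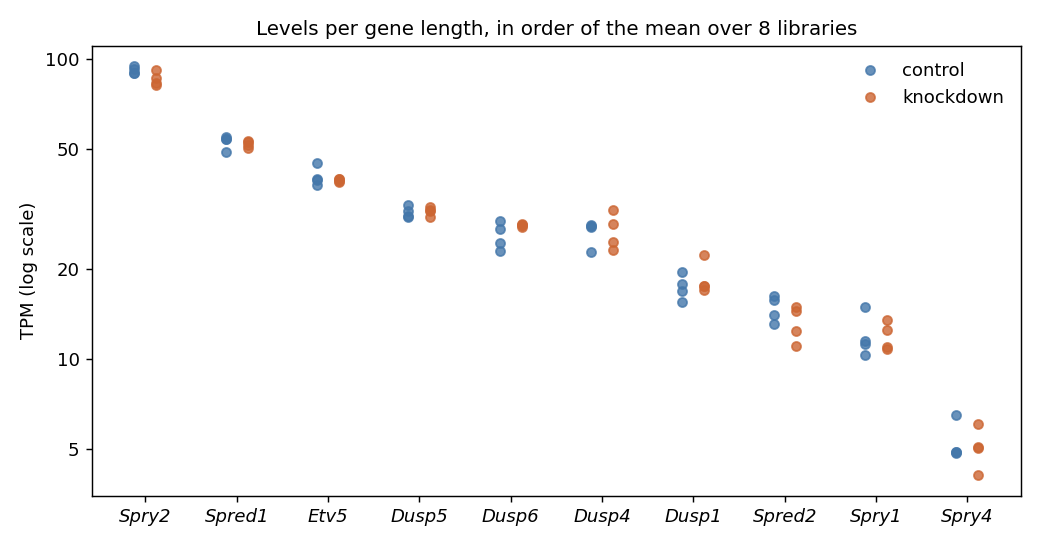
Levels of the 10 genes in TPM (log axis) in each control (blue) and knockdown (orange) library, ordered by the mean over 8 libraries. Spry2 is highest at 88.7 TPM and Spry4 lowest at 5.19 TPM on average, and control and knockdown points overlap in all 10 genes on this scale.

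Egr1, the immediate early transcription factor gene that the feedback genes were chosen to set in context, fell in the same libraries (ENSMUSG00000038418; chromosome 18, 34859823 to 34864984, plus strand). It had 446, 441, 229 and 197 CPM in controls 1 to 4 and 81.8, 97.7, 87.0 and 57.0 CPM in knockdown 1 to 4. Its log2 fold change was -2.02 (SE 0.24, 95% interval -2.55 to -1.50, edgeR adjusted p = 0.0186). The call ended without control 1 (-1.84, adjusted p = 0.0633), without control 2 (-1.85, adjusted p = 0.0727) and with limma on log2(TPM + 1) (-1.93, adjusted p = 0.0740). The lowest bound of any feedback gene's interval was -0.38, for Spred2, and lay above the upper bound of Egr1. Egr1 entered the comparison because of its fall in these libraries, so the difference between it and the feedback genes was not tested. Within the controls, Egr1 was at 367 and 369 TPM in controls 1 and 2 and at 185 and 154 TPM in controls 3 and 4, while the 10 genes summed to 321 and 334 TPM in controls 1 and 2 and to 313 and 303 TPM in controls 3 and 4.

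**Figure D3:**
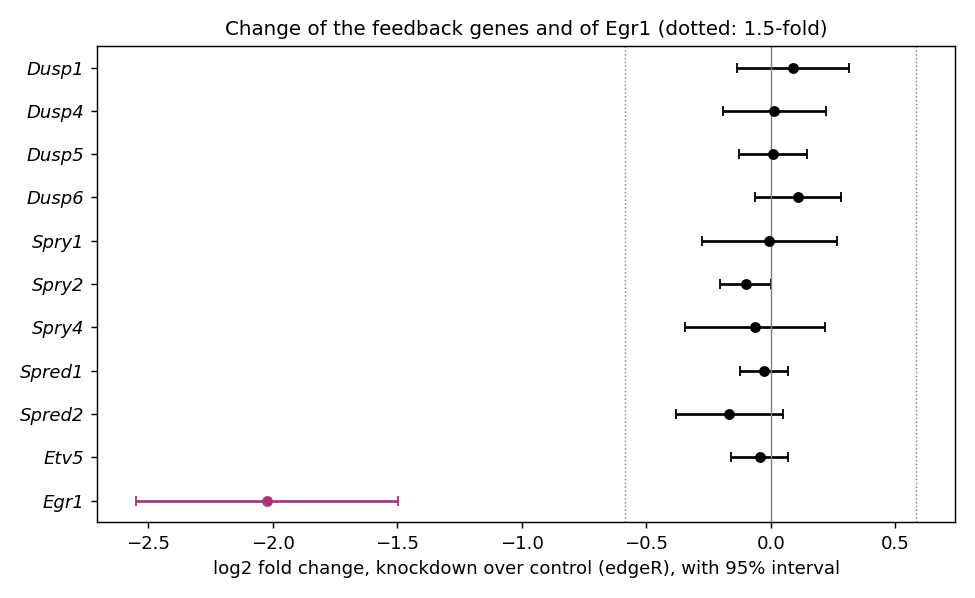
Log2 fold change, knockdown over control, of the 10 feedback genes (black) and Egr1 (purple), with approximate 95% intervals from edgeR; dotted lines mark 1.5-fold. All 10 black intervals cross 0 and stay inside the dotted lines, and that of Egr1 runs from -2.55 to -1.50. The share of all genes inside the dotted lines was not counted. Egr1 is shown because of its fall in these libraries, and its difference from the feedback genes was not tested.

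Among the 22 listed immediate early genes, which respond to ERK and other signals, 18 were tested and Egr1 alone was called. Fold changes were negative for 12 of the 18, with a median of -0.09, and 4 had an unadjusted p under 0.05, all lower in the knockdown. Of all genes tested, 48.2% were negative and 5.27% had an unadjusted p under 0.05 in edgeR. Egr1 is 1 of the 4, and the list was chosen with earlier results of these data known. These counts are thus no independent result about immediate early genes. Ier2, a small nuclear regulator gene, had 22.9, 24.1, 21.04 and 16.4 CPM in the controls and 16.6, 12.7, 10.8 and 11.1 CPM in the knockdown (log2 fold change -0.72, edgeR adjusted p = 0.169). Its knockdown 1 lay just above control 4. Nr4a1, an orphan nuclear receptor gene, had 57.1, 69.0, 51.0 and 51.5 CPM in the controls and 47.1, 42.0, 39.0 and 36.0 CPM in the knockdown (-0.48, edgeR adjusted p = 0.200). Its groups did not overlap in CPM, and it did not pass. Groups without overlap were found for 3.31% of all genes tested, and with all knockdown values the lower for 1.71%. DESeq2 called Ier2 and Nr4a1 as well as Egr1, and so did edgeR without knockdown 1. With no expression filter edgeR called these 3 and Fos, and without control 3 it called Egr1 and Fos. Fos, named after its values were seen, had 64.1 ± 21.1 and 35.8 ± 4.79 CPM (SD, n = 4 each; log2 fold change -0.84, adjusted p = 0.214 in edgeR), with groups that did not overlap.

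**Figure D4:**
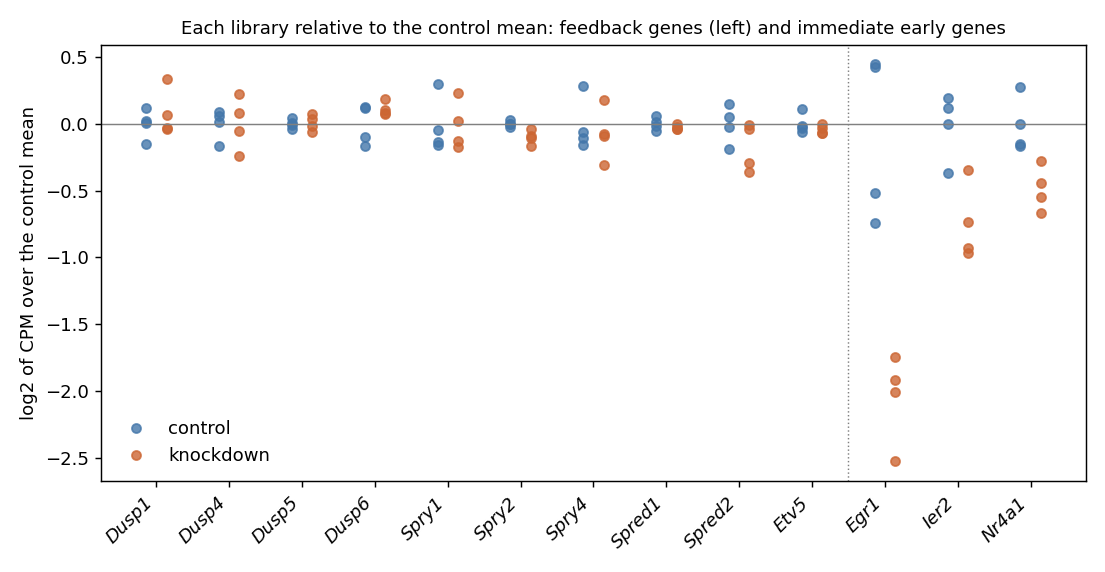
Each library's level as log2 of its CPM over the control mean, for the 10 feedback genes (left of the dotted line) and for Egr1, Ier2 and Nr4a1. Control libraries are blue and knockdown libraries orange; all 4 knockdown values lie below the control mean (0) for Spry2, Spred1 and Spred2 and above it for Dusp6, and the 4 knockdown values of Egr1 lie below its 4 controls.

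The remaining genes of the pathway were grouped by role, and 0 were called in each of 6 lists by edgeR and DESeq2. With 0.062% and 0.279% of all genes called, these counts lie near the background. For the counts that follow, 48.2% of all genes tested were negative and 5.27% had an unadjusted p under 0.05 in edgeR. All 21 listed genes of the core relay, which begins with adaptors such as Grb2, were tested, with 9 positive and 12 negative fold changes, a median of -0.02 and 0 at an unadjusted p under 0.05. The smallest p-values belonged to the Ras genes Hras, at 26.9 ± 2.47 and 24.0 ± 0.630 CPM (SD, n = 4 each; log2 fold change -0.16), and Nras, at 42.9 ± 1.89 and 46.3 ± 2.22 CPM (0.11), and to the Raf kinase gene Braf, at 164 ± 11.8 and 174 ± 15.9 CPM (0.09). These Ras genes had opposite signs, and each pair of groups overlapped.

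Of the 14 other brakes of Ras and ERK, 13 were tested and 3 had an unadjusted p under 0.05. The Ras GTPase-activating protein gene Rasa2 had 73.2, 77.9, 80.9 and 78.0 CPM in the controls and 88.0, 83.7, 89.5 and 93.3 CPM in the knockdown (log2 fold change 0.19, edgeR adjusted p = 0.409). Its paralog Rasa1 had 83.0 ± 1.89 and 89.6 ± 3.67 CPM (SD, n = 4 each; 0.11, adjusted p = 0.918). In both genes every knockdown library was above every control in CPM, and neither passed. Groups without overlap in CPM were found for 3.31% of all genes tested. In TPM the groups of Rasa1 overlapped, at 43.7 to 46.5 TPM in the controls and 44.5 to 51.9 TPM in the knockdown. Spred3, the third Spred gene, had 26.4 ± 4.08 and 22.2 ± 2.43 CPM (-0.25, edgeR adjusted p = 0.930), with overlapping groups. The log2 fold changes of the Spred genes were thus -0.03, -0.17 and -0.25 for Spred1, Spred2 and Spred3.

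Of the 11 other MAP kinase phosphatases 9 were tested, with 6 positive and 3 negative fold changes, a median of 0.0075 and 1 gene, Dusp3, at an unadjusted p under 0.05. Dusp3 had 95.5 ± 4.62 and 88.3 ± 2.79 CPM (SD, n = 4 each; log2 fold change -0.11, edgeR adjusted p = 0.929), the JNK phosphatase gene Dusp16 had 32.6 ± 1.36 and 35.9 ± 6.38 CPM, and Dusp26 had 64.0 ± 2.99 and 66.6 ± 1.62 CPM. The 11 p38 and JNK kinase genes, 10 of them tested, had 2 positive and 8 negative fold changes, a median of -0.04 and 0 at an unadjusted p under 0.05. Of these Mapk8 had 126 ± 4.33 and 133 ± 6.77 CPM, Mapk10 107 ± 1.96 and 100.1 ± 10.9 CPM, and Map2k4 88.3 ± 4.12 and 84.1 ± 2.06 CPM.

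Of the 35 growth factor receptors and ligands 32 were tested, with 17 positive and 15 negative fold changes, a median of 0.0072 and 4 genes at an unadjusted p under 0.05. Fgf2, a growth factor made by retinal cells under stress, had 94.4, 90.8, 119 and 97.0 CPM in the controls and 197, 100.3, 135 and 104 CPM in the knockdown (log2 fold change 0.42, edgeR adjusted p = 0.902). Knockdown 1 was far above the rest, while knockdown 2 and 4 lay within the controls. The receptor gene Egfr had 18.1 ± 2.14 and 21.6 ± 2.69 CPM (0.26), and the pericyte receptor gene Pdgfrb 31.2 ± 1.83 and 27.4 ± 1.90 CPM (SD, n = 4 each; -0.19).

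Of the 18 other ERK-dependent targets 16 were tested, with 9 positive and 7 negative fold changes, a median of 0.03 and 2 genes at an unadjusted p under 0.05. Phlda1, a common readout of MEK and ERK activity, had 8.57 ± 0.257 and 7.23 ± 0.833 CPM (SD, n = 4 each; log2 fold change -0.25, edgeR adjusted p = 0.930). The pseudokinase gene Trib1 had 100.1 ± 1.60 and 108 ± 4.85 CPM (0.11, adjusted p = 0.911 in edgeR). Groups did not overlap in CPM in either gene, with opposite directions, as in 3.31% of all genes tested. In TPM those of Trib1 overlapped, at 55.35 to 59.6 TPM in the controls and 58.9 to 64.4 TPM in the knockdown. The cyclin gene Ccnd1 had 39.3 ± 2.77 and 44.1 ± 6.82 CPM (0.17, edgeR adjusted p = 0.961).

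**Figure D5:**
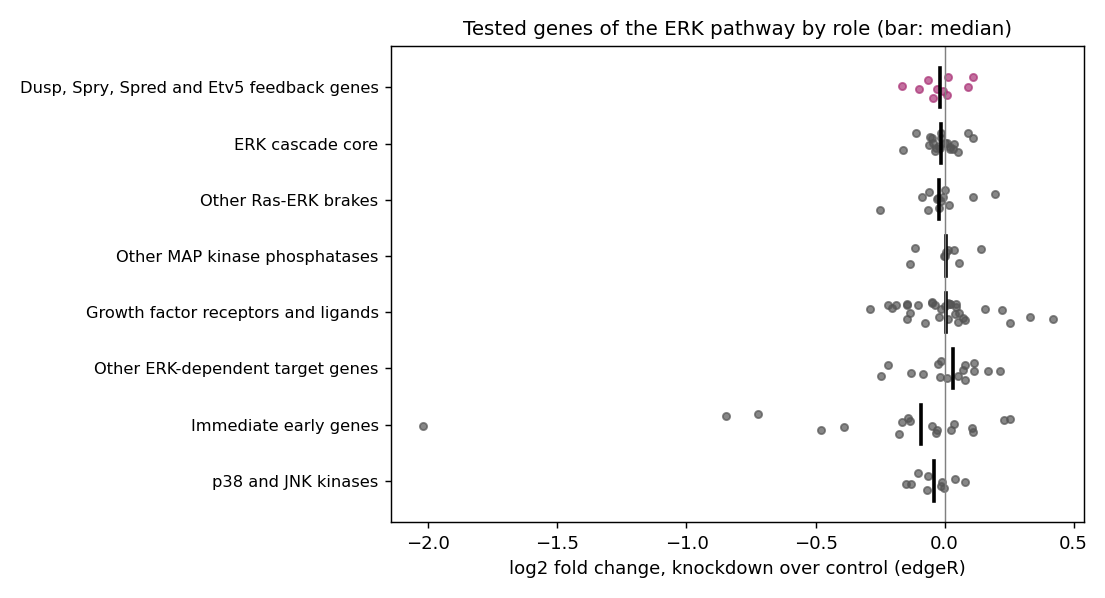
Log2 fold change, knockdown over control (horizontal axis), of each tested gene of the feedback group (purple) and of 7 further lists of the pathway (grey), with vertical bars at the medians and the points spread vertically for visibility. The medians lie between -0.09 and 0.03, and Egr1 stands at -2.02 among the immediate early genes.

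Profiles over the 8 libraries were set against that of Spry2, the member with the smallest p-value, after scaling each gene's log2 CPM to mean 0 and SD 1. Among 128 other pathway genes the nearest were Pdgfb, a platelet-derived growth factor gene, with a root mean square difference of 0.233, Egr1 with 0.605 and Phlda1 with 0.634. Pdgfb had 10.7, 10.3, 9.63 and 10.8 CPM in the controls and 9.04, 9.01, 9.86 and 8.13 CPM in the knockdown (log2 fold change -0.20, edgeR adjusted p = 0.934). As in Spry2, knockdown 3 was its highest and knockdown 4 its lowest knockdown library. The scaling removes size, so the fold changes of -0.10 for Spry2 and -2.02 for Egr1 stand side by side in this measure. Spry2 was picked by its p-value and Egr1 for its fall, so a near rank can follow from the group difference alone. Within the groups the order differed: Spry2 was highest of the controls in control 4 (78.9 CPM), where Egr1 was lowest (197 CPM). The highest knockdown library was knockdown 3 for Spry2 and knockdown 2 for Egr1, while knockdown 4 was lowest for both.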

How the data were processed

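Retinal RNA was sequenced as paired 150-base reads (NovaSeq X Plus), per the labels' protocols. The submitters' processing notes list Bowtie 0.12.2 and mm9 without saying what for. The authors deposited a table named for TPM whose values are estimated counts: library totals were 16.03 to 21.4 M (units of 1000000) and 90.6% to 91.9% of a library's values were whole. The counting tool, its annotation and its use of strand were not given in the sources used here. Of the table's identifiers 91.3% were found in GENCODE M21 (GRCm38), used for positions and overlaps only. Gene lengths, in bases, are as deposited by the authors.

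Counts were rounded. The 16118 genes that reached 1 TPM in 4 or more of the 8 libraries were compared with edgeR 4.0.16 in R 4.3.3 (quasi-likelihood test, TMM scaling, group as the only term, Benjamini-Hochberg adjustment over all genes tested). TPM came from the counts and lengths. CPM are TMM-scaled over the tested genes; marker sums are unscaled. The SE was the size of a log2 fold change divided by the root of its F statistic, and intervals use it with edgeR's total degrees of freedom. The 16 alternatives were median-of-ratios scaling, DESeq2 1.42.0, limma 3.58.1 on log2(TPM + 1) and log2(TPM + 0.1) with an intensity trend, no filter, a mean TPM of at least 5, the replicate number as a block, Ddx3y as a covariate, and each library left out. Fits were tested on simulated data.

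The members and gene lists were chosen with earlier results of these data known. All members are reported, and of each list the called genes and the 3 with the smallest p-values.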

Additional observations from a re-analysis of the deposited data

How the results depend on the processing

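The count of feedback genes called was 0 in all 16 alternatives, and it was fixed at 0 in those that called 0 of all genes. The number of all genes called was 10, and it was 45 with DESeq2, 0 with limma on log2(TPM + 1) (804 genes at an unadjusted p under 0.05), 157 with no expression filter, 1 with a mean TPM of at least 5, and 0 to 58 with a library left out: 0 without control 1 or control 2, 1 without control 4 and 58 without control 3. The cause was not tested. The sign turned for 5 members. With a library left out the log2 fold changes ran from -0.00304 to 0.133 for Dusp1, -0.0662 to 0.0876 for Dusp4, -0.0128 to 0.0313 for Dusp5, -0.0932 to 0.109 for Spry1 and -0.158 to 0.0461 for Spry4, and that of Spry1 was 0.00222 with limma on log2(TPM + 1) and 0.00288 with log2(TPM + 0.1). Dusp6, Spry2, Spred1, Spred2 and Etv5 kept their sign in all 16. Unadjusted p-values under 0.05 were found for Spry2 without knockdown 3 (0.0317) and Spred2 without control 1 (0.0488).

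With the replicate number as a block, 0 members and 11 genes were called. Libraries with the same number did not deviate together (correlations of deviations from the group mean, across genes, from -0.155 to 0.0087). For libraries with different numbers the correlations ran from -0.146 to 0.171. Deviations from a mean of 4 libraries offset each other, so this check cannot exclude that the numbers pair the samples. The members had 153 to 2844 counts in a library, and the depth limits Spry4 and Spry1 most.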
